A study of Mus musculus with 16 samples.

Results

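The accessibility of 10 genes that govern passage from G1 into S phase was examined in activated B cells with and without Brg1: the D cyclins Ccnd2 and Ccnd3, the kinases Cdk4, Cdk6 and Cdk2, and the inhibitors Cdkn1a, Cdkn1b, Cdkn2a, Cdkn2c and Cdkn2d. The genes were taken by symbol from a GRCm38 annotation. ATAC-seq peaks were counted as promoter peaks where they fell within 1000 bp before or 100 bp after a start site of the gene, and other peaks in the gene body or within 10 kb of it were kept apart. Joining the overlapping peaks of all libraries gave 27 regions at these genes, 10 promoter regions at 9 of the 10 genes and 17 other regions, of 16566 combined regions in all.

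ATAC-seq, in which the Tn5 transposase places sequencing adapters into open chromatin, was analysed in 8 libraries of splenic B cells of C57BL/6 mice, each made from 50000 cells. 4 libraries were Brg1 fl/+ and 4 were Brg1 fl/fl, and all 8 carried CD23-Cre on 1 allele (CD23Cre +/-), which is active in mature B cells. The Brg1 fl/+ cells therefore lack 1 allele of Smarca4, the gene of Brg1, and are the control group here. No ATAC-seq library without Cre or with 2 intact alleles was analysed. The B cells were activated in culture with LPS (10 μg/mL) together with IL-4 (20 ng/mL); the sample labels give 72 hours of culture and the series description 96 hours. The sources do not say whether the libraries of a genotype came from separate mice, so p-values measure the spread between libraries, which may be technical.

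D cyclins are the growth-factor-responsive partners of Cdk4 and Cdk6, and the resulting kinases phosphorylate the retinoblastoma protein and so release E2F factors. Cdk2, with cyclins E and A, carries this on into S phase. The Ink4 inhibitors (Cdkn2a, Cdkn2c and Cdkn2d) bind Cdk4 and Cdk6, whereas the Cip/Kip inhibitors (Cdkn1a and Cdkn1b) bind cyclin-Cdk complexes more broadly. In mature B cells Ccnd2 and Ccnd3 are the D cyclins in use, and both LPS and IL-4 drive resting B cells into the cycle.

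The 4 control lists held 6372 to 14614 peaks and the 4 Brg1 fl/fl lists 6271 to 9216, and a longer list reaches weaker peaks. The cyclin, Cdk and inhibitor genes had 24, 24, 13 and 16 regions in Brg1 fl/+ replicates 1 to 4 and 18, 16, 18 and 19 in the Brg1 fl/fl replicates. Brg1 fl/+ replicate 3, with 6372 peaks, therefore missed 14 of the 27 regions, and results that rest on it are given with and without it. The Smarca4 promoter, which the deletion need not remove, was open in 8 of 8 libraries and does not check the genotype. Among promoters of 7 B cell marker genes, Ms4a1 and Pax5 had a peak in 8 libraries, Ebf1 in 6 and Cd79a in 1, while Cd79b, Cd22 and Blk had none in any. No promoter of 15 T cell, myeloid, NK cell and erythroid markers had a peak. A smaller share of open cells and less opening per cell cannot be told apart in such bulk libraries.

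Of the 9 genes with a promoter region, 8 had one listed in at least 3 Brg1 fl/fl libraries, Cdk6 being the exception. Of the 27 regions, 12 (44.4%) were detected in all 8 libraries, against 27.7% of all combined regions. Promoter regions of any gene were in all 8 libraries more often, at 4244 of 10324, and 10 of the 12 were such regions. The other shares given here were counted over all combined regions, promoter or not. Detection was less frequent in Brg1 fl/fl than in control libraries at 8 regions (29.6%), as it was at 47.2% of all regions, and more frequent at 6 (22.2%), as it was at 16.7% of all regions. No region was detected in 4 libraries of 1 genotype and none of the other. The 7 regions seen in 1 or 2 control lists but never in Brg1 fl/fl belong to a class that held 32.9% of all regions. Of the 7, 6 lay outside the promoter windows of the 10 genes, as did 17 of the 27 regions. Some of these 6 were promoters of other genes, at Agap2, at 9630013D21Rik and at Tspan31 with A730063M14Rik. When each list was cut to its best 6271 peaks, 17 regions were left, of which 1 was in fewer and 4 were in more Brg1 fl/fl libraries.

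**Figure D1:**
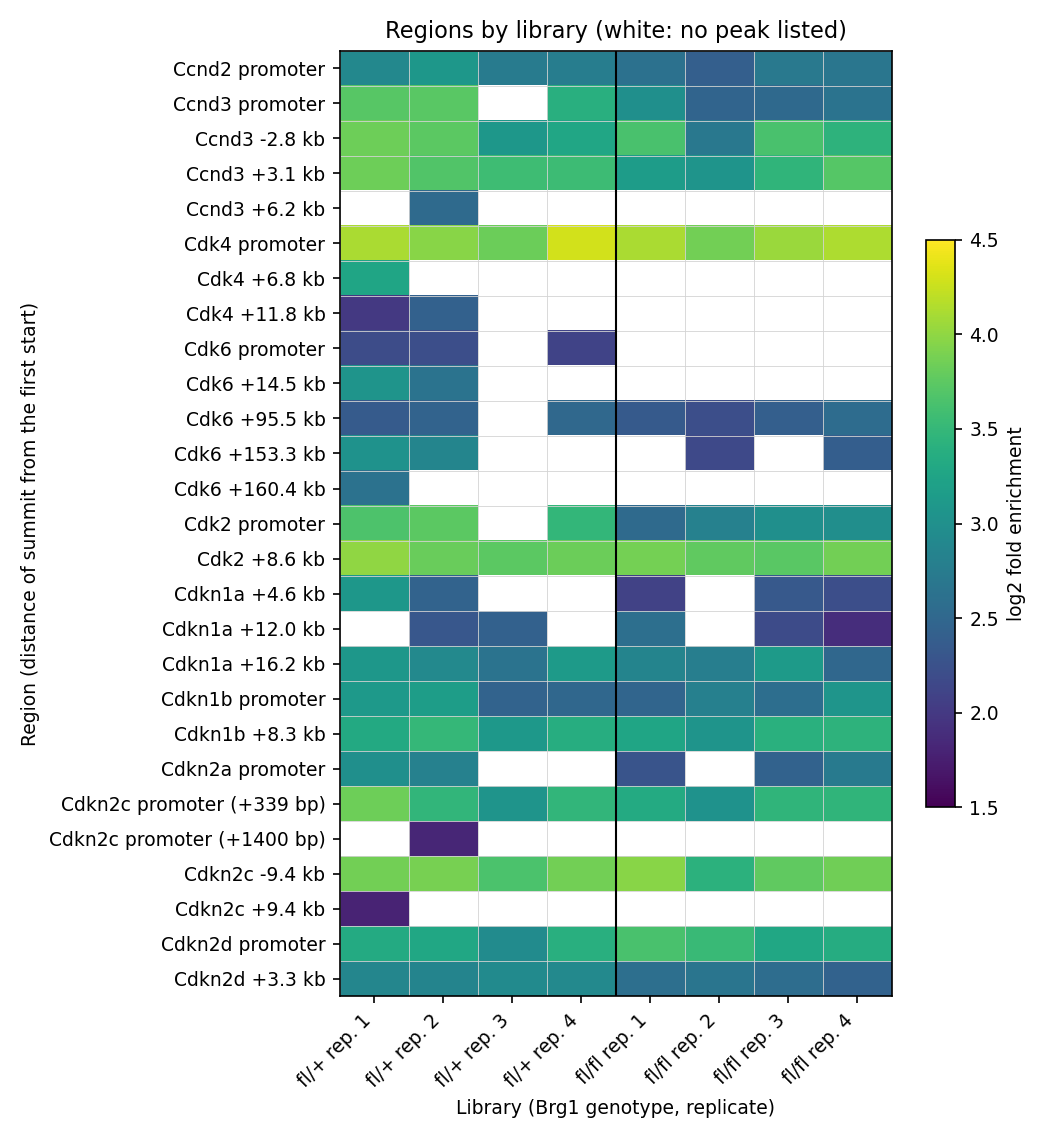
Each row is 1 of the 27 regions, named by gene and by the distance of its summit from the first start of the gene, and each column is 1 library, with Brg1 fl/+ left of the line and Brg1 fl/fl right of it. Colour gives log2 fold enrichment and white means no peak listed; 12 rows are filled across all 8 libraries, and the column of Brg1 fl/+ replicate 3 has 13 filled cells.

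Peak height was compared as fold enrichment, the summit signal divided by the background expected around it in that library. Over regions shared by all libraries the median log2 fold was lower by 0.20 in Brg1 fl/fl, and heights were therefore centred on that median within each library. Of 4582 regions tested with limma, 100 (2.18%) were lower and 155 (3.38%) higher in Brg1 fl/fl at an adjusted p under 0.05. This split moved with the scaling: 114 and 104 with quantile normalization, 151 and 6 without centring, and 160 (3.5%) and 413 (9.03%) for fragments recovered at the summit. None of the 12 regions of cyclin, Cdk and inhibitor genes in that test passed, and 1, the Cdkn2d promoter, had an unadjusted p under 0.05, as did 1054 of the 4582. Their median difference was 0.10 on the log2 scale, beside 0.029 over all regions tested. The remaining 15 regions were missing from at least 1 library and could not enter the test.

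**Figure D2:**
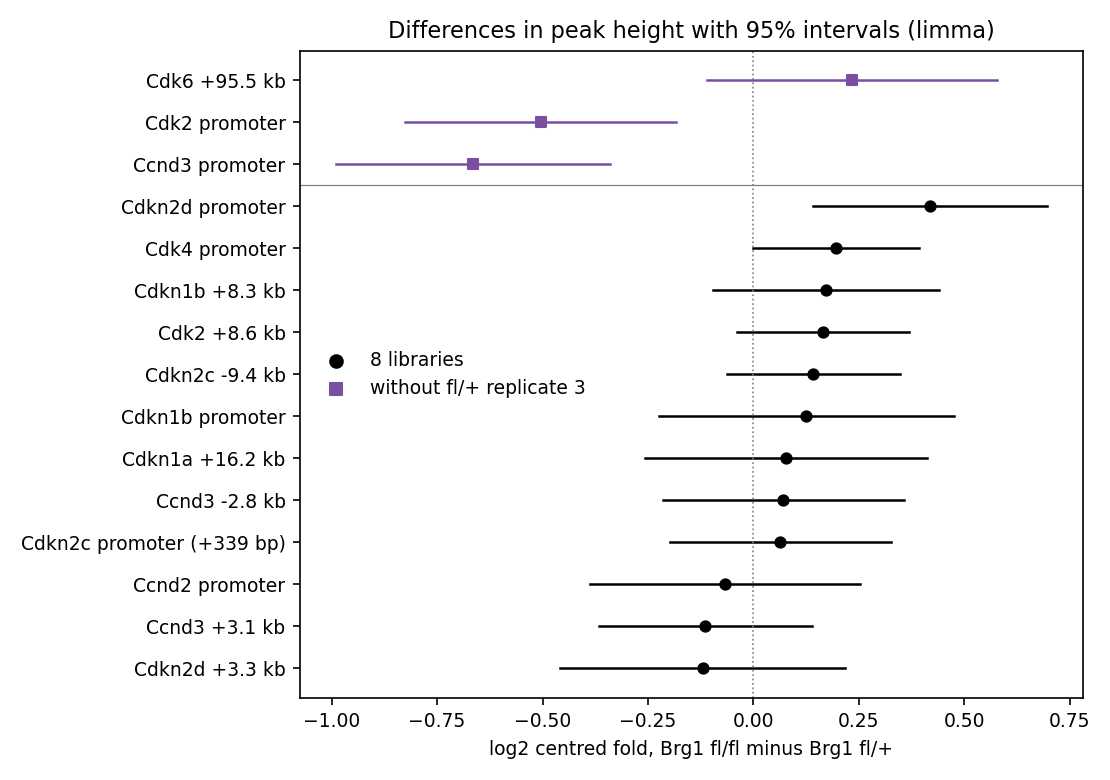
Points are differences in centred log2 fold (Brg1 fl/fl minus Brg1 fl/+) with 95% intervals from limma. Black circles are the 12 regions found in all 8 libraries, from -0.12 to 0.42, and violet squares are 3 regions not listed in Brg1 fl/+ replicate 3 and fitted here without it, among them the Ccnd3 and Cdk2 promoters at -0.66 and -0.50.

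Of the D cyclins, Ccnd2 (ENSMUSG00000000184.12), which is induced early when B cells leave rest, had a single region at chr6:127151874-127152811 (mm10, minus strand gene), with its summit 392 bp upstream of the outermost start, in an intron of the gene 9330179D12Rik. It was detected in 8 of 8 libraries. Its fold was 7.46, 8.52, 6.69 and 6.83 in Brg1 fl/+ and 6.15, 5.32, 6.57 and 6.38 in Brg1 fl/fl. The deposited folds of the 2 genotypes did not overlap and were lower in Brg1 fl/fl. The share of all regions with such a gap before centring was not counted. After centring the Ccnd2 folds overlapped, with a difference of -0.07 (95% interval -0.39 to 0.25, limma, adjusted p = 0.83). Before centring the log2 difference was -0.27, beside a shift of -0.20 in the median of the shared regions. The 150 bases around this summit are shown because they lie outside any annotated exon and hold 1 CCAAT box on the reverse strand and 1 GC box, in capitals (GRCm38, chr6:127152510-127152659, minus strand).
Ccnd2: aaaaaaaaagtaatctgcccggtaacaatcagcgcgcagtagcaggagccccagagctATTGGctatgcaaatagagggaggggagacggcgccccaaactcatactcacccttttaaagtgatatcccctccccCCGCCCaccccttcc

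Ccnd3 (ENSMUSG00000034165.16), the D cyclin tied to germinal centre B cells, has start sites in a far upstream cluster and in an internal cluster, whose peak summit is 88376 bp from the first start. No library had a peak at the upstream cluster. The internal promoter, at chr17:47593263-47593751 with its summit 9 bp from the nearest start, was detected in 3 Brg1 fl/+ and 4 Brg1 fl/fl libraries. Its fold was 13.2, 13.3 and 10.5 in Brg1 fl/+ replicates 1, 2 and 4, and 7.94, 5.52, 5.78 and 6.25 in Brg1 fl/fl. On this uncentred scale, and with the control library that listed no peak left out, the 3 Brg1 fl/+ folds lay above the 4 Brg1 fl/fl folds, as they did at 39.1% of the 486 regions listed in every library but Brg1 fl/+ replicate 3. Recovered fragments at the summit were 58, 36 and 28 against 26, 10, 17 and 16. Brg1 fl/+ replicate 3 listed no peak here, so its height lay below what that list could detect (5% of its peaks had a fold under 4.54), and with it the genotypes may overlap.

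Without Brg1 fl/+ replicate 3, 128 (2.53%) of 5068 regions were lower and 285 (5.62%) higher in Brg1 fl/fl. In that fit the Ccnd3 internal promoter was lower by 0.66 on the log2 scale (-0.66, SE 0.16, 95% interval -0.99 to -0.34), a fold ratio of 0.63 (limma, adjusted p = 0.0106). With the missing value set to the 5th percentile of its list the difference was -0.40 (adjusted p = 0.392). Over the 5 alternatives that could include this promoter it ran from -0.77 to -0.40, with adjusted p from 0.0106 to 0.392. The 4 that passed all leave out the missing value, and the one that fills it did not pass. The call at Ccnd3 therefore depends on how the library with no peak is treated.

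The sequence just upstream of the internal start of Ccnd3 (GRCm38, chr17:47593286-47593435, plus strand) is shown because it lies wholly inside the region that was lower in that fit. Its CCAAT box and GC box are in capitals.
Ccnd3: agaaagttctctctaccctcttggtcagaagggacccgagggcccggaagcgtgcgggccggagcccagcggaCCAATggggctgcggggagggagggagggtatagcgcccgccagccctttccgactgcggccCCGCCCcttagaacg

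None of the other regions at Ccnd3 passed a test, and whether they differ from the internal promoter was not tested. An intronic region 3087 bp inside the gene (chr17:47507982-47508435) was open in 8 of 8 libraries, with folds of 14.3, 12.9, 11.8 and 11.8 in Brg1 fl/+ and 8.94, 8.28, 10.99 and 13.1 in Brg1 fl/fl. The genotypes overlapped through Brg1 fl/fl replicate 4 (difference -0.11, 95% interval -0.37 to 0.14, limma, adjusted p = 0.62). A region 2819 bp upstream (chr17:47501943-47502502), at the promoter of Taf8, a gene of the general transcription machinery, had control folds of 8.50 to 14.3 and Brg1 fl/fl folds of 6.53 to 12.5, and differed by 0.07 (-0.22 to 0.36, adjusted p = 0.80). A further intronic peak, 6175 bp from the first start, had a fold of 5.80 in Brg1 fl/+ replicate 2 and was listed nowhere else.

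**Figure D3:**
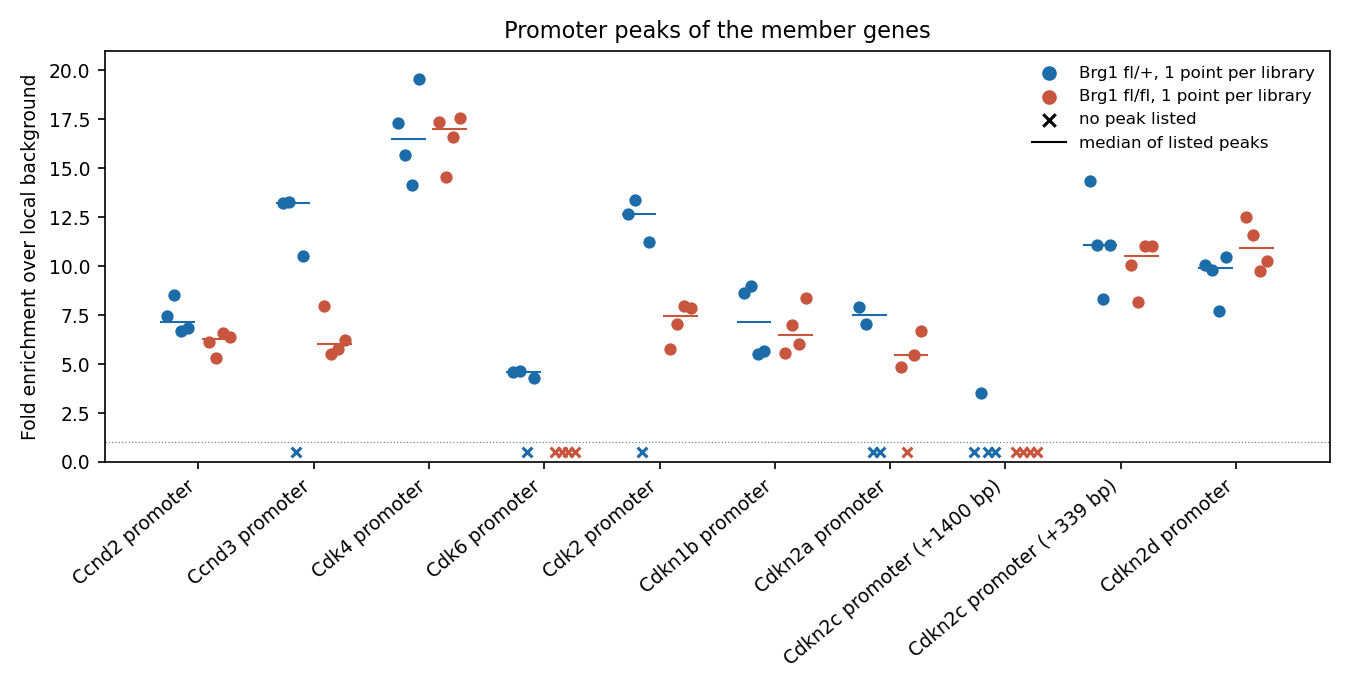
Points are the fold enrichment over local background of the highest peak in each library at the 10 promoter regions, with Brg1 fl/+ in blue, Brg1 fl/fl in red, horizontal lines at the median of listed peaks and crosses where no peak was listed (dotted line: a fold of 1). The Ccnd3 and Cdk2 promoters have 3 listed Brg1 fl/+ peaks above the Brg1 fl/fl peaks and 1 Brg1 fl/+ cross each, before any centring, and the Cdk6 promoter has 3 points and 5 crosses.

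The kinase genes differed widely in promoter height. Cdk4 (ENSMUSG00000006728.12), whose product is the main partner of D cyclins, had the highest median promoter fold of the 10 genes, at chr10:127063208-127063811 with its summit 62 bp upstream of the first start. Its fold was 17.3, 15.7, 14.2 and 19.6 in Brg1 fl/+ and 17.4, 14.6, 16.6 and 17.6 in Brg1 fl/fl. By q it stood within the top 0.616% to 3.5% of every list. Summit fragments numbered 159, 95, 56 and 101 against 108, 60, 110 and 115. The genotypes overlapped, with a difference of 0.20 (95% interval -0.0016 to 0.39, limma, adjusted p = 0.22). No reduction in Brg1 fl/fl was detected at Cdk4.

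The 150 bases up to the first Cdk4 start (GRCm38, chr10:127063384-127063533, plus strand) are shown because this was the only member promoter with the E-box CACGTG within 100 bp of its summit. All 3 copies and 1 GC box on the reverse strand are in capitals.
Cdk4: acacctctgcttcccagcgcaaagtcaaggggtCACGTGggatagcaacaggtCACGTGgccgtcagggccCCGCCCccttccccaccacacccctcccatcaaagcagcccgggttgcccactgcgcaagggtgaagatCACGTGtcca

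A peak 6828 bp from the first Cdk4 start, at the promoters of Tspan31 and A730063M14Rik, had a fold of 9.59 in Brg1 fl/+ replicate 1 and was listed nowhere else. Another, at the Agap2 promoter 11826 bp away, was listed in Brg1 fl/+ replicates 1 and 2 only, with folds of 4.003 and 5.39.

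Cdk2 (ENSMUSG00000025358.16), the kinase of S phase entry, shares its promoter region (chr10:128704737-128705230) head to head with Pmel, a pigment cell gene, and the peak cannot be assigned to 1 of them. It was detected in 3 Brg1 fl/+ and 4 Brg1 fl/fl libraries. Its fold was 12.7, 13.4 and 11.2 in Brg1 fl/+ replicates 1, 2 and 4 and 5.79, 7.06, 7.94 and 7.89 in Brg1 fl/fl. Replicate 3 of Brg1 fl/+ listed no peak, and the uncentred folds of the other 3 lay above those of Brg1 fl/fl, a pattern of the same 39.1% of regions. Summit fragments were 48, 30 and 25 against 16, 12, 23 and 20.

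Without Brg1 fl/+ replicate 3 the Cdk2 promoter was lower in Brg1 fl/fl by 0.50 on the log2 scale (-0.50, SE 0.158, 95% interval -0.83 to -0.18), a fold ratio of 0.70 (limma, adjusted p = 0.0425). Quantile normalization of the same 7 libraries gave -0.50 (adjusted p = 0.0768) and recovered fragments gave -0.45 (adjusted p = 0.178). With the missing value at the 5th percentile of its list the difference was -0.24 (adjusted p = 0.651). Of the 5 alternatives, only this last one gives the control library without a peak any value. The call at Cdk2 therefore also depends on that library and on the scale.

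The centre of the Cdk2 region lies in an exon of Cdk2, and its summit is 69 bp upstream of the first start. Only 30 bases are shown, around the E2F letters nearest the summit (TTCCCGC, here read on the other strand), in capitals (GRCm38, chr10:128705043-128705072, minus strand).
Cdk2: gccagggaaacGCGGGAAggaggggcgggg

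The other Cdk2 region, 8609 bp downstream of its first start and 1517 bp past the gene end (chr10:128695995-128696766), is the promoter of Rab5b, an endosomal GTPase. It was open in 8 of 8 libraries at 13.4-fold to 15.99-fold in control and 13.3-fold to 14.7-fold in Brg1 fl/fl lists. Its difference was 0.16 (95% interval -0.04 to 0.37, limma, adjusted p = 0.32), and whether this differs from the Cdk2 and Pmel start was not tested.

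Cdk6 (ENSMUSG00000040274.11), the other D cyclin kinase, had the weakest promoter signal of the kinases. No library had a peak at its outermost start. A region at the inner start cluster (chr5:3343641-3344539, summit 40 bp from the nearest start) was listed in Brg1 fl/+ replicates 1, 2 and 4, with folds of 4.58, 4.65 and 4.31, and in none of the Brg1 fl/fl libraries. Such a pattern, at least 3 control lists and no Brg1 fl/fl list, was seen in 2.16% of all combined regions. The difference in detection did not pass (two-sided exact permutation test over 70 assignments, p = 0.143). Only a peak in 4 libraries of 1 genotype and none of the other could pass this test. The 3 peaks rested on 19, 11 and 7 fragments and ranked 79.1%, 91.4% and 98.4% of the way down their lists by q, all below the best 6271 peaks. A peak missing from a list does not show that the promoter is closed. The part of depth was not tested: Brg1 fl/+ replicate 4 listed the peak among 7632, and Brg1 fl/fl replicates 1, 3 and 4 did not among 9216, 8500 and 8605.

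The bases upstream of the inner Cdk6 cluster (GRCm38, chr5:3343582-3343731, plus strand) are shown as the sequence just before that cluster. Of the 150, 91 lie inside the region, whose summit is downstream of them. Capitals mark 1 E-box, which lies more than 100 bp from the summit.
Cdk6: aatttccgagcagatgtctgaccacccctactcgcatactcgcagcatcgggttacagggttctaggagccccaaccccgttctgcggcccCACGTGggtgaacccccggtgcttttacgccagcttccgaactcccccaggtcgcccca

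4 further regions were found inside the long Cdk6 gene, all in introns. The one 14510 bp from the first start was listed in Brg1 fl/+ replicates 1 and 2 only (folds 8.32 and 6.24), and the one at 160384 bp in Brg1 fl/+ replicate 1 only (6.21). The one at 153291 bp was listed in 2 libraries of each genotype, with folds of 8.18 and 7.28 in Brg1 fl/+ and 4.49 and 5.26 in Brg1 fl/fl. The one at 95467 bp was listed in 3 Brg1 fl/+ libraries (5.13, 5.51 and 5.71) and 4 Brg1 fl/fl libraries (5.08, 4.65, 5.32 and 5.88), with overlapping values. Without Brg1 fl/+ replicate 3 this last region differed by 0.23 (95% interval -0.11 to 0.58, limma, adjusted p = 0.395), whereas its recovered fragments differed by 0.81 (adjusted p = 0.0323). In that fit of fragments 446 of 5061 regions were higher and 151 lower in Brg1 fl/fl. The region at 95467 bp spans 2207 bp, and 83.6% of its bases are soft-masked as repeats in the reference.

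Among the inhibitors, Cdkn1a (ENSMUSG00000023067.14), the p53 target that halts the cycle after DNA damage, was the only member with no promoter peak in any library. Its nearest region was a peak in its intron 4594 bp from the first start (chr17:29095287-29095810), which also overlaps a promoter window of AC167363.2. This region was listed in 2 Brg1 fl/+ libraries (folds 8.52 and 5.48) and 3 Brg1 fl/fl libraries (4.28, 5.06 and 4.66). A region 12040 bp from the start was also listed in 2 and 3 libraries, with folds of 4.98 and 5.38 against 6.05, 4.56 and 3.71. Neither pattern of detection can be told from no difference (exact permutation test, p = 1.0 for both).

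The strongest signal near Cdkn1a was a broad region of 2858 bp that begins beyond the gene, with its summit 6468 bp past the gene end (chr17:29105857-29108714), against a median width of 542 bp over all combined regions. Soft-masked repeat bases made up 95.3% of it. Its fold was 8.47, 7.54, 6.22 and 8.78 in Brg1 fl/+ and 7.24, 6.86, 8.75 and 5.67 in Brg1 fl/fl, with overlapping values (difference 0.08, 95% interval -0.26 to 0.41, limma, adjusted p = 0.81). Recovered fragments at its summit were 26, 18, 13 and 25 against 39, 23, 42 and 27. On that scale, also centred per library, it was higher by 0.89 in Brg1 fl/fl (SE 0.217, limma, adjusted p = 0.00576). The local background used by the peak caller was higher as well, at 2.19, 1.52, 1.25 and 1.96 fragments in Brg1 fl/+ and 4.52, 2.50, 3.92 and 3.93 in Brg1 fl/fl. These backgrounds did not overlap between the genotypes, as was the case in this direction at 0.35% of 4575 regions. Divided by the median local background of each library they ran from 0.47 to 1.00 for control and from 1.36 to 1.74 for Brg1 fl/fl, a pattern found at 9.16% of regions. The lowest background anywhere in a library was 0.541 to 1.30 fragments for control and 0.783 to 1.67 for Brg1 fl/fl. The part of the repeat sequence in the values downstream of Cdkn1a was not tested.

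**Figure D4:**
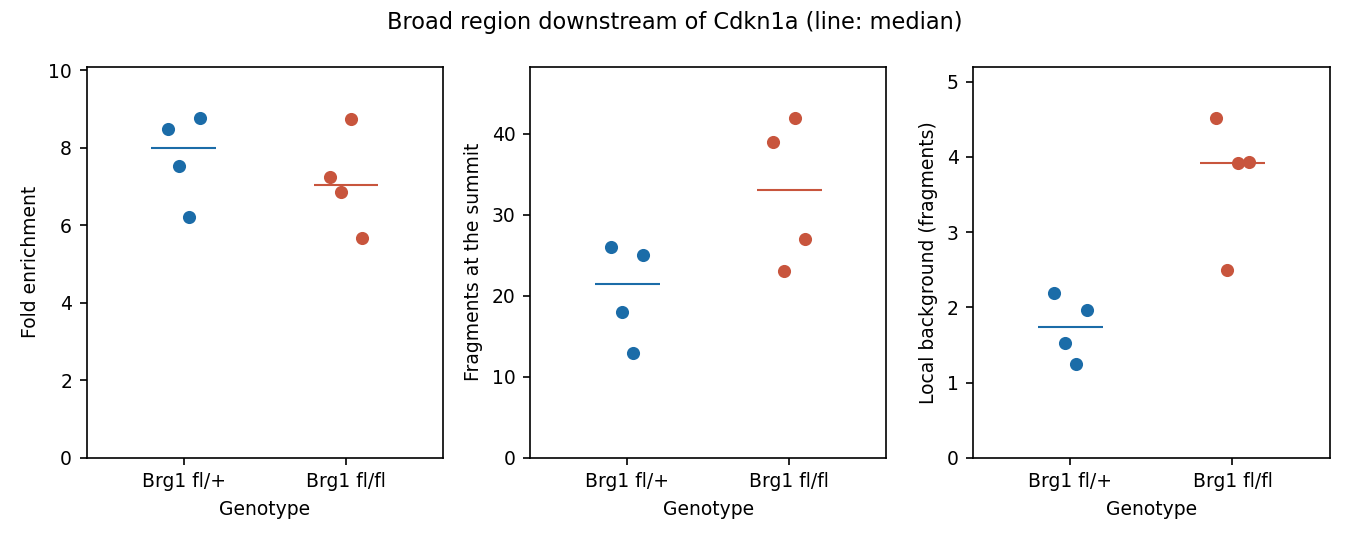
The 3 panels give, for the broad region downstream of Cdkn1a, the fold enrichment, the recovered fragments at the summit and the local background in fragments, with 1 point per library and a line at the median of each genotype. Folds overlap between genotypes, while background runs from 1.25 to 2.19 fragments in control libraries and from 2.50 to 4.52 in Brg1 fl/fl libraries.

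Cdkn1b (ENSMUSG00000003031.14), the inhibitor that holds resting lymphocytes out of the cycle, had a promoter peak in 8 of 8 libraries (chr6:134920062-134920776, summit 21 bp downstream of the first start). Its fold was 8.65, 8.97, 5.51 and 5.67 in Brg1 fl/+ and 5.59, 6.97, 6.00 and 8.37 in Brg1 fl/fl. The spread within each genotype was as wide as the range between them (difference 0.13, 95% interval -0.23 to 0.48, limma, adjusted p = 0.70). The promoter of the noncoding gene Lockd, 8339 bp downstream, was taller than the Cdkn1b promoter itself in all 8 libraries, with control folds of 8.60 to 11.3 and Brg1 fl/fl folds of 8.32 to 10.9, and differed by 0.17 (-0.10 to 0.44, adjusted p = 0.44).

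Of the Ink4 genes, Cdkn2a (ENSMUSG00000044303.6) was the least open. It encodes an Ink4 inhibitor from its downstream start and the p53 regulator Arf from its upstream start. The upstream start had a peak (chr4:89294541-89295657) in 2 Brg1 fl/+ libraries, with folds of 7.94 and 7.04, and in 3 Brg1 fl/fl libraries, with folds of 4.86, 5.46 and 6.68. The start of the Ink4 transcript had no peak in any library. The difference in detection cannot be told from none (exact permutation test, p = 1.0), and the summits held 12 to 22 fragments.

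Cdkn2c (ENSMUSG00000028551.14), the inhibitor with a known part in plasma cell formation, had a promoter region in 8 of 8 libraries (chr4:109666397-109667132, summit 339 bp inside the gene). Its fold was 14.3, 11.1, 8.30 and 11.1 in Brg1 fl/+ and 10.1, 8.15, 11.01 and 11.03 in Brg1 fl/fl, with overlapping values (difference 0.06, 95% interval -0.20 to 0.32, limma, adjusted p = 0.80). A small second promoter peak, 1400 bp inside the gene, had a fold of 3.54 in Brg1 fl/+ replicate 2 and was listed nowhere else. The promoter of Faf1, 9398 bp upstream, was open in 8 of 8 libraries with control folds of 12.5 to 14.8 and Brg1 fl/fl folds of 10.7 to 15.7 (difference 0.14, -0.06 to 0.35, adjusted p = 0.41). A peak 9433 bp downstream, at the promoter of 9630013D21Rik, had a fold of 3.48 in Brg1 fl/+ replicate 1 alone.

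Cdkn2d (ENSMUSG00000096472.2), the Ink4 inhibitor whose level cycles with S phase, came closest to a difference in the test of all 8 libraries. Its promoter (chr9:21290951-21291637) was detected in 8 of 8, with folds of 10.1, 9.79, 7.71 and 10.5 in Brg1 fl/+ and 12.5, 11.6, 9.75 and 10.3 in Brg1 fl/fl. The deposited folds overlapped. After centring every Brg1 fl/fl library lay above every Brg1 fl/+ library, the only 1 of the 12 regions without overlap of the genotypes, beside 13.2% of all 4582 regions. The difference was 0.42 (SE 0.137, 95% interval 0.14 to 0.70), a fold ratio of 1.34, and did not pass (limma, adjusted p = 0.0595). Over 21 alternatives it ran from 0.17 to 0.49 with adjusted p from 0.0497 to 0.423, and 1 passed, the fit without Brg1 fl/fl replicate 3. Summit fragments were 155, 100, 41 and 78 against 129, 59, 85 and 84, a centred difference of 0.24 (limma, adjusted p = 0.21). Without centring the fold differed by 0.22 (limma, adjusted p = 0.42). The local background over its library median was lower in Brg1 fl/fl, at 2.54 to 2.91 against 3.12 to 3.47 in Brg1 fl/+. This was not particular to the Cdkn2d promoter. Such values were also lower without overlap at the Kri1 promoter, the Rab5b promoter (1.49 to 1.68 against 1.77 to 1.90) and the Ccnd3 intronic region open in all libraries. The region downstream of Cdkn1a went the other way. The share of all regions lower in this way was not counted. The part of the local background in the Cdkn2d difference was not tested.

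The region on the far side of Cdkn2d, 312 bp past its end at the promoter of Kri1 (chr9:21287904-21288271), had folds of 7.35, 7.23, 7.66 and 7.50 in Brg1 fl/+ and 6.04, 6.35, 5.95 and 5.46 in Brg1 fl/fl. These deposited folds did not overlap and were lower in Brg1 fl/fl. The share of all regions with such a gap before centring was not counted. After centring the folds on the Kri1 side overlapped (difference -0.12, 95% interval -0.46 to 0.22, limma, adjusted p = 0.70).

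A ratio of the 2 regions within 1 library needs no scaling between libraries. For Cdkn2d, promoter over Kri1 side, it was 1.37, 1.35, 1.01 and 1.40 in Brg1 fl/+ and 2.07, 1.82, 1.64 and 1.88 in Brg1 fl/fl, without overlap. The log2 ratio was higher by 0.54 in Brg1 fl/fl (two-sided exact permutation test, p = 0.0286, the smallest that 4 against 4 allows, and 0.0857 adjusted over 3 gene pairs). The same ratio of recovered fragments differed by 0.57. The 2 regions had nearly equal local background in each library, so this is not a separate measure. This comparison of neighbouring regions was chosen after the values were seen. Of 181 such pairs across the genome, 16.6% did not overlap between genotypes. The corresponding ratios at Cdkn1b and Cdkn2c overlapped (exact permutation test, p = 0.714 and 0.657).

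The sequence up to the first Cdkn2d start (GRCm38, chr9:21291408-21291557, minus strand) is shown as the exon-free part of this region. Capitals mark a GC box, the CHR letters TTTGAA and both CCAAT boxes, 1 on each strand; the summit lies downstream of the start, and all of these letters are more than 100 bp from it.
Cdkn2d: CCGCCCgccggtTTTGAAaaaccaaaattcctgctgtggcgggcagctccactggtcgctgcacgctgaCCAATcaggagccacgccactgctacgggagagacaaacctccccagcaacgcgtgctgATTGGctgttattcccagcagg

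**Figure D5:**
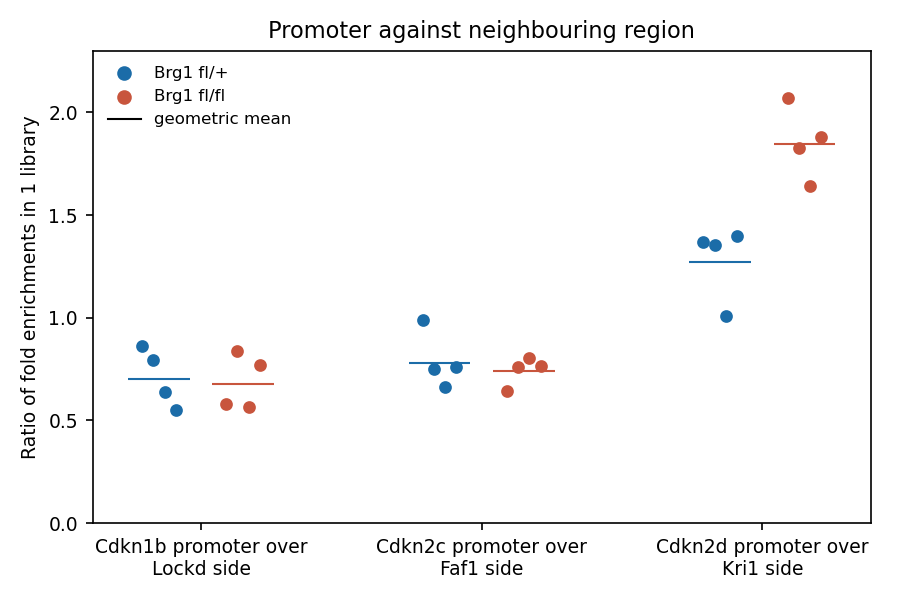
Points are the ratio of promoter fold to the fold of the neighbouring promoter-side region within 1 library, for Cdkn1b, Cdkn2c and Cdkn2d, with lines at the geometric mean of each genotype. For Cdkn2d the 4 Brg1 fl/fl ratios, 1.64 to 2.07, lie above the 4 Brg1 fl/+ ratios, 1.01 to 1.40, and the other genes overlap.

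Within 100 bp on each side of the summit (201 bases) the median GC content of the 10 promoter regions was 68.4%, from 54.2% at Ccnd2 to 79.1% at Cdkn2c, beside 66.7% over 10324 promoter regions of all genes, and the median number of CpG sites was 19 in both. 7 sets of letters were searched in these windows on both strands. The GC box GGGCGG (SP and KLF factors) was present in 9 of 10, all but Cdk6, and in 66.7% of all promoter regions. CCAAT (NF-Y) was present in 4 of 10, at Ccnd2, Ccnd3, Cdk2 and Cdkn1b, and in 32.0% of all. TTCCCGC (E2F) was present in 2 of 10, at Cdk2 and Cdkn2c, and in 7.16% of all. CACGTG (E-box) was present at Cdk4 alone and in 8.71% of all. GGAANTCCC (NF-kB), TGANTCA (AP-1) and TTTGAA (CHR) were in none of the 10, and in 1.92%, 2.48% and 5.05% of all. These are matches of letters, not sites shown to be bound.

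17 further genes of G1 and S phase entry, among them cyclins E and A, the E2F activators and the pocket proteins, were measured in the same way. 16 had a promoter region, Mnat1 being the exception. Of their 18 regions, 11 (61.1%) were detected in 8 of 8 libraries, beside 4244 of 10324 promoter regions of all genes. 3 regions (16.7%) were found in fewer and 2 (11.1%) in more Brg1 fl/fl libraries, beside 47.2% and 16.7% of all combined regions, promoter or not. None of the 11 passed the height test, beside 255 of 4582 regions. 1 had an unadjusted p under 0.05, as did 1054 of the 4582. The largest differences were at Rbl1, a pocket protein that restrains E2F targets, higher by 0.46 (SE 0.146, limma, adjusted p = 0.0533), and at Cks1b, a Cdk-binding subunit, with -0.24 (adjusted p = 0.28).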

How the data were processed

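Per the labels and the methods of the study, the authors used Bowtie2 to align ATAC-seq reads to mm10, and MACS2 to call peaks library by library, without pooling replicates. Versions, options, duplicate handling and any Tn5 shift are not given in the sources used here. The deposited lists give each peak a fold enrichment at its summit over local background, a ratio within 1 library, with its −log10 p and −log10 q (lowest −log10 q 1.31). They hold no read counts, so a depth-dependent absence of a peak is not absence of open chromatin. The 8 RNA-seq libraries and the read coverage the authors compared were not analysed here.

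Overlapping or touching peaks were joined. A region was detected where a peak overlapped it by at least 1 bp, and a promoter region overlapped a window of any start site in GENCODE M21 (GRCm38) by at least 1 bp. Heights (log2 fold of the highest peak) were centred per library on the median over 4582 regions of chromosomes 1 to 19, X and Y found in all 8 libraries and tested with limma (with trend), Benjamini-Hochberg adjusted over all of them, at a threshold of 0.05. Detection was tested by exact permutation over 70 assignments, which only 4 libraries of 1 genotype against none of the other can pass. Fragments at the summit were recovered from fold and −log10 p (at least 99.7% of peaks solved to within 0.002). Precision is limited by 4 libraries a genotype and by counting error in the fragments. Sequence came from the RefSeq GRCm38.p6 genome. Printed windows of 150 bases were moved upstream until free of annotated exons.

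The genes, gene lists and tests were chosen with earlier results of these data known. Named were all 10 genes and their regions, their nearest annotated genes, Smarca4, cell type markers (1 of which is not reported here), and, of 17 other genes, those passing a test and the 2 with the largest height difference. Alternatives were other scalings, stricter lists, other overlap and annotation rules, averaging of libraries, the replicate number as a block and each library left out; those that admit regions missing from 1 library were added after seeing the data. The limma fit, with independent noise in each library, and the recovery of fragments were tested on simulated data, and the other steps were not. Replicate numbers did not pair libraries (correlations of deviations -0.09 to 0.012). Tools were R 4.3.3 with limma 3.58.1 and Python 3.11.15 with scipy 1.17.1, numpy 2.4.6, pandas 2.3.3, matplotlib 3.10.9 and pysam 0.24.0.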

Additional observations from a re-analysis of the deposited data

Results flagged for a closer look

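Groups of 4 libraries were checked for the centred log2 fold at each of the 12 regions found in all 8 libraries and for the number of regions detected per library, in each genotype. In 1 of these 26 groups a library stood well apart, where chance alone flags about 1 group in 20. At the Cdkn2d promoter the centred log2 fold of Brg1 fl/+ replicate 4 was -0.1925, while the other Brg1 fl/+ libraries lay between -0.44 and -0.436. Its deposited fold was 10.5. It lies next to the lowest Brg1 fl/fl value, -0.18, so that the gap between the genotypes at this promoter is narrow.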

How the results depend on the processing

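None of the 12 shared regions passed in the main test, nor with quantile normalization, no centring, promoter regions alone, a −log10 q of at least 5, equal list lengths, no mean-variance trend or averaged libraries. With recovered fragments 1 passed (the region downstream of Cdkn1a). On the centred fold, leaving out 1 library gave 0 to 2 member regions. There were 2 without Brg1 fl/+ replicate 3 (the Ccnd3 and Cdk2 promoters) and 1 (Cdkn2d promoter) without Brg1 fl/fl replicate 3. The Ccnd3 and Cdk2 promoters are not among the 12 and, with 1 library left out, can be tested only there. Also without Brg1 fl/+ replicate 3, quantile normalization gave 1 (the Ccnd3 promoter) and recovered fragments gave 3 of 15 tested. These 3 were the Ccnd3 promoter, the region downstream of Cdkn1a and the Cdk6 region at 95467 bp. Where 3 libraries of each genotype sufficed, 2 passed, and none did with missing values at the 5th percentile. Over all regions, counts lower and higher were 100 and 155 as reported, 151 and 6 without centring, 160 and 413 with fragments, 83 and 95 at promoters, 61 and 74 without the trend, 31 and 45 with libraries 1 and 2, and 3 and 4, averaged as the list names group them, 260 and 195 with 3 libraries sufficing, 9 and 10 with missing values filled, and 30 to 128 and 47 to 285 with 1 library left out. For detection, a −log10 q of at least 10 left 2 member regions in more Brg1 fl/fl libraries and 19 promoter detections in Brg1 fl/fl (31 as reported), equal lists left 1 in fewer and 27 other detections in Brg1 fl/+ (45), 50% cover gave 10 in more, and leaving out 1 library gave 5 to 9 in fewer and 3 to 7 in more. Except where a setting tests fewer regions or libraries, the cause was not tested. The replicate block gave 91 lower and 118 higher and no member region; the numbers do not pair the libraries, and none correlated best with its own number. Depth limits detection: 5% of the peaks of a list had a fold under 3.91 to 4.77.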
